A study of Mus musculus with 12 samples.

Results

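Thymic lymphomas that carried the MYC mutant S62A were compared with control thymic tissue of mice over the whole transcriptome, using the 6 libraries of these groups among the 12 of the series. The 3 lymphoma libraries are labelled as T lymphocytes with ectopic MYCS62A only, and the 3 control libraries as T lymphocytes with endogenous MYC only. The series also holds 3 libraries of thymic lymphoma with the mutant T58A and 3 from S62A animals with splenomegaly, which entered the fit and share its estimate of the spread. Poly(A) RNA was sequenced with a kit that keeps strand. The labels speak of spontaneous disease, and give no age, sex or strain, nor the promoter of the ectopic gene. Each library has a title code of its own, and the labels do not say whether a code stands for an animal. A p-value here therefore weighs a difference only against the scatter of these libraries, part of which may be technical. Title codes begin with I in every S62A lymphoma and with G or H in the controls, so the code and the group cannot be told apart.

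MYC is a transcription factor that binds DNA together with MAX at the sequence CACGTG, called an E-box, and is best known for driving growth: the making of ribosomes, the supply of nucleotides and amino acids, and entry into the cell cycle. A serine and a nearby threonine near the start of the protein govern its turnover. Phosphorylation of the serine steadies the protein and primes that of the threonine, after which MYC is marked for destruction; in S62A the serine is replaced by alanine. In the normal thymus, immature T cells rearrange their receptors in contact with epithelial cells.

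Libraries of the 2 groups held between 14172274 and 22437969 reads assigned to genes. Myc stood at 85.5, 79.9 and 82.9 CPM (reads per 1000000, scaled between libraries by TMM factors) in controls and at 158, 203 and 157 CPM in the lymphomas, where reads of an ectopic copy cannot be told from those of the resident gene. T cell genes were present in all 6 libraries, but 10 of 14 T cell markers fell and none rose, against 22.2% of all tested genes that fell and 21.9% that rose (edgeR's quasi-likelihood test, adjusted p under 0.05). Tcf7, a T lineage transcription factor, stood at 4041 to 5597 CPM over the 6 libraries and did not pass the test (adjusted p = 0.14). All 16 markers of thymic epithelium fell, from a summed 4301 to 4904 CPM in controls to 174 to 445 CPM. Of 14 macrophage markers 12 rose, from a summed 682 to 803 CPM to 2019 to 3286 CPM, and without lymphoma 2 the risen were 5. The integrin gene Itgam alone went from a mean of 11.9 to 948 CPM, a large part of the summed rise. The median log2 fold change of the 14 markers was 1.62. Of 12 granulocyte markers 11 fell, from a summed 146 to 239 CPM to 9.15 to 16.8 CPM. Control 3 stood apart: the ribosomal RNA precursor Rn45s reached 22428 CPM there against 2068 and 1636 CPM in the other controls, and Ucp1, a gene of brown fat, 245 CPM against 1.75 and 0.22 CPM. Of 10 adipocyte markers 8 fell, and 2 did so without control 3, where Ucp1 had an adjusted p of 0.117. The tissue is a mixture, so fewer cells of a type and less RNA per cell cannot be told apart.

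The tumours differed from control tissue in a large part of the transcriptome. Of 15606 genes tested, 6885 were called, a share of 44.1%. Of these, 3414 rose and 3471 fell. The 3 lymphoma values all lay above or all below the 3 control values in 9407 genes (60.3%). Asked whether the change was larger than 2-fold (glmTreat), 741 genes passed upward (4.75%) and 1425 downward (9.13%). The near balance of directions depended on the scale: with library size as the only scaling 2857 genes were higher and 3919 lower, and with limma on log2(FPKM + 0.1) 2656 were higher and 4250 lower. The median log2 fold change of all tested genes was −0.09 and −0.13 under those settings, against 0.00059 under TMM. Without each control in turn the called genes numbered 5157 to 5306, and the genes past a 2-fold rise 486 to 498.

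Falls were deeper than rises. With genes at no reads in a group set at the floor of 3 counts over the group, the median log2 fold change was 0.998 among the risen and −1.93 among the fallen genes. By the same measure 1082 of the fallen genes (31.2%) had changed by at least 8-fold, against 400 of the risen (11.7%). Rises gathered among abundant genes. Genes were divided by mean CPM into 4 classes of equal size. In the highest class 32.6% rose and 20% fell, and in the lowest 7.48% rose and 25.9% fell. Fewer genes reached 1 CPM in each lymphoma, 12891 to 12911 against 13932 to 13959 in controls, with no overlap. The exact two-sided permutation test gave p = 0.1, the smallest that 3 against 3 allows (adjusted over 5 measures of composition p = 0.25). In mixed tissue, fewer cell types and fewer genes in use per cell cannot be told apart.

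**Figure D1:**
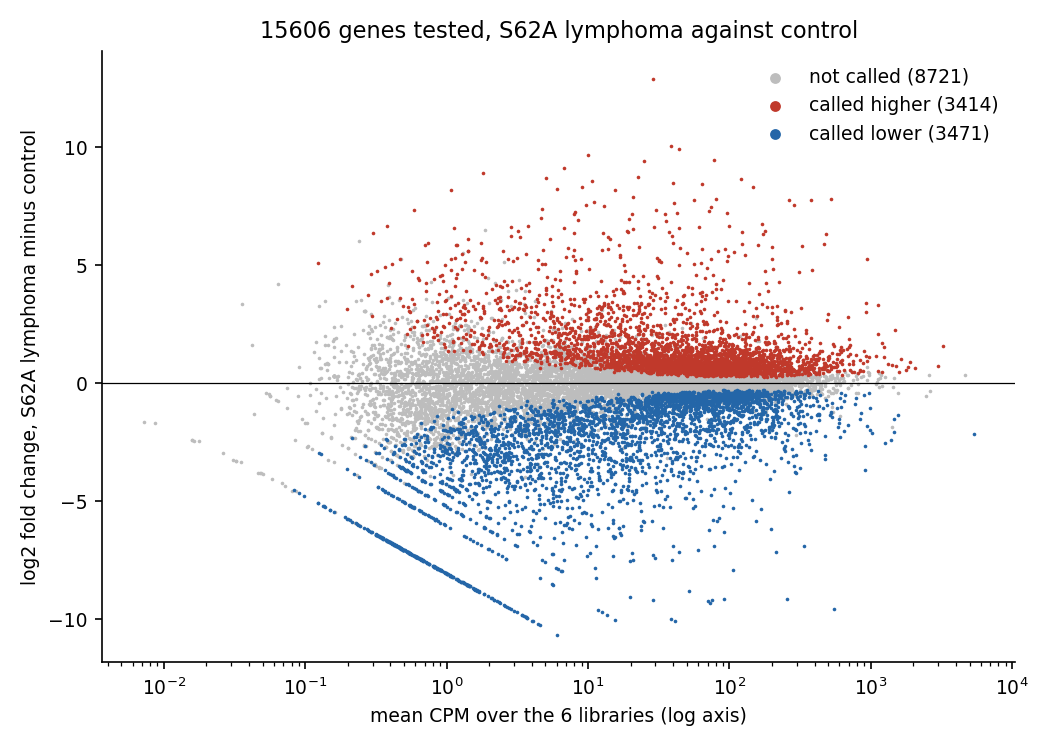
Log2 fold change of S62A lymphoma over control (vertical axis) against mean CPM over the 6 libraries (log axis), 1 point per gene tested; red points are the 3414 genes called higher, blue the 3471 called lower and grey the rest. Blue points reach far from 0 at low levels, and red points are frequent at high levels, where 32.6% of genes rose. Genes without reads in a group, 256 of the fallen and 7 of the risen, are drawn at the fitted value and not at their bound. Falls of at least 32-fold number 477 by fitted value and 292 at the bound.

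Seen as reads, 23.5% of the library differed between the mean control and the mean lymphoma. Pairs of controls differed by 2.2% to 6.5% of their reads, pairs of lymphomas by 11.7% to 16.1%, and a control and a lymphoma by 22.7% to 27.5%. The shift was broad: it took 410 genes to make up 50% of the gain and 403 genes to make up 50% of the loss.

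The largest gains in CPM, a measure that favours long and abundant transcripts, include genes of protein folding, translation, lysosomes and transport. Hsp90ab1, a cytosolic chaperone, stood at 1652, 1659 and 1513 CPM in controls and at 5302, 4271 and 4985 CPM in lymphomas (log2 fold change 1.59 ± 0.14 SE, adjusted p = 1.26e-05). Slc29a1, a carrier that takes up nucleosides, rose from 204, 212 and 197 CPM to 2184, 1176 and 2787 CPM (3.33 ± 0.32, adjusted p = 2.43e-05). Ctsb, a lysosomal protease, rose from 462, 508 and 571 CPM to 2923, 3095 and 1342 CPM (2.26 ± 0.29, adjusted p = 0.000162). In none of these do the groups overlap, and the lymphomas are spread over a wider range of CPM than the controls. Ctsb is also abundant in macrophages, whose markers rose in these libraries; their part in the result was not tested.

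Several of the large gains belong to nuclear and RNA-binding proteins. Med13, a subunit of the Mediator kinase module, stood at 209.8, 199.8 and 197 CPM in controls and at 2149, 1055 and 1769 CPM in lymphomas (3.04 ± 0.37). Ddx3x, an RNA helicase encoded on chromosome X, went from 438, 416 and 439.5 CPM to 1572, 2131 and 1794 CPM (2.09 ± 0.16, adjusted p = 6.17e-06). Cecr2, a bromodomain protein of chromatin remodelling (chromosome 6, 120616439 to 120721209 of mm9), went from 4.7, 4.3 and 4.98 CPM to 1223, 835 and 1090.2 CPM, a log2 fold change of 7.81 ± 0.43 (adjusted p = 1.10e-06). Each lymphoma thus held Cecr2 far above every control. Malat1, a long noncoding RNA of nuclear speckles, rose from 445, 478 and 761 CPM to 2311, 1881 and 1350.0 CPM, and Serbp1, an RNA-binding protein, from 671, 634 and 579 CPM to 1384, 2109 and 2024 CPM.

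Other gains rested unevenly on the tumours. Pou2af1, a coactivator of B cell transcription, stood at 13.6 to 17 CPM in controls and at 1010.5, 202 and 1532 CPM in lymphomas, while none of 11 tested B cell markers rose and 4 fell. H19, an imprinted noncoding RNA, stood at 27.1 to 60.02 CPM in controls and at 213, 549 and 4729.9 CPM in lymphomas (5.25 ± 1.36, adjusted p = 0.00965). Its imprinted neighbour Igf2, a growth factor, stood at 3.14 to 4.03 CPM and at 21.3, 22.8 and 388 CPM (adjusted p = 0.0143, 0.0531 without control 2 and 0.0878 without lymphoma 3). Lymphoma 3 was the highest in each of these genes.

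The largest fall in mean CPM was that of Rn45s (log2 fold change −2.14 ± 0.79, adjusted p = 0.047), which rested on control 3: without it the log2 fold change was 0.091. Satb1, a chromatin organiser of thymocytes, stood at 2330.2, 2322 and 2437 CPM in controls and at 250.5, 982 and 84.8 CPM in lymphomas (−2.43 ± 0.72, adjusted p = 0.018, and 0.0596 without lymphoma 1). Dntt, which adds random bases at receptor junctions, fell from 1664 to 1767 CPM to 45.1, 46.8 and 306 CPM (−3.68 ± 0.89). The falls of Satb1 and Dntt varied several-fold among the tumours. Hmha1, a GTPase activator of blood cells, fell from 2111, 2118 and 2267 CPM to 417, 305 and 389 CPM (−2.55 ± 0.13, adjusted p = 1.03e-06). Coro1a, an actin-binding protein of leukocytes, fell from 1584 to 1732 CPM to 299, 328 and 526 CPM, and Ccnd3, the D-type cyclin of dividing thymocytes, from 1546, 1583 and 1223 CPM to 415, 612 and 218 CPM.

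**Figure D2:**
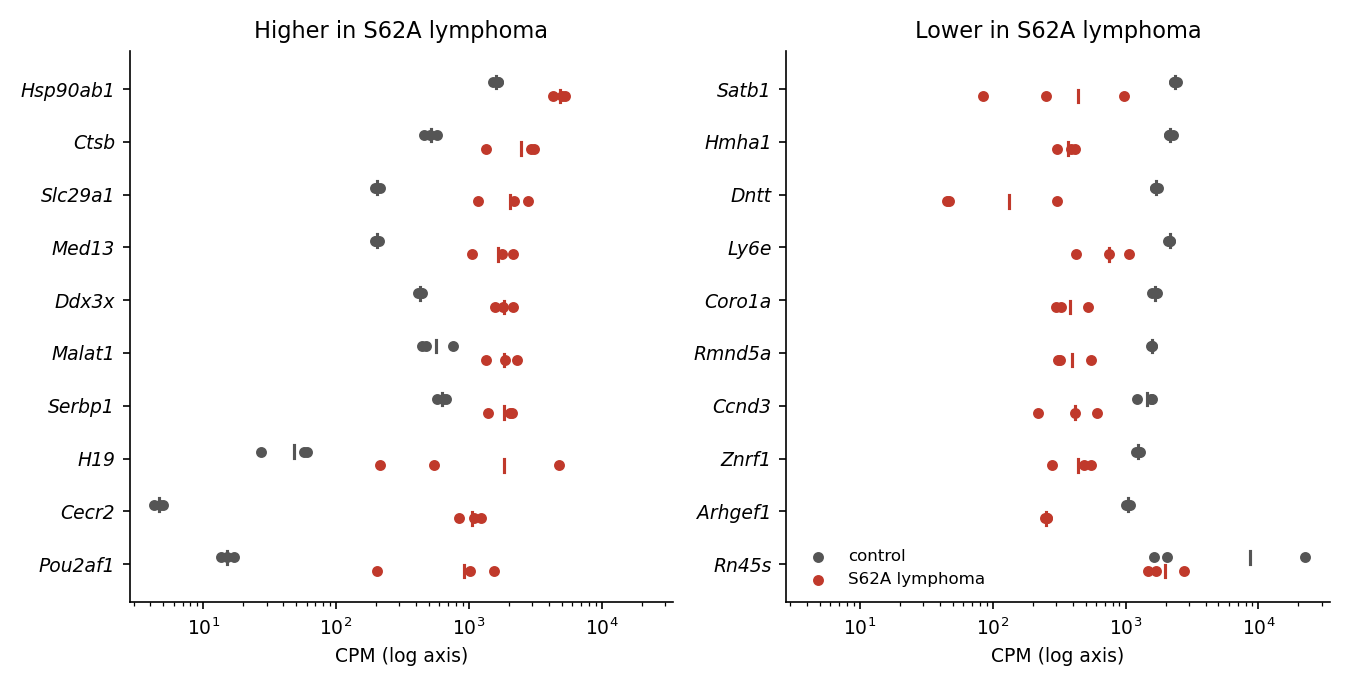
CPM (log axis) of 10 genes with large gains (left) and 10 with large losses (right) in each control (grey) and each S62A lymphoma (red), with a vertical tick at the mean of the 3 libraries. The groups overlap for Rn45s alone of these genes, where 1 control stands at 22428 CPM.

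Other changes were smaller in reads. The genes that follow were picked for the smallest p-values, a choice that favours little scatter among libraries. Among the genes with the smallest p-values, Itsn1, a scaffold of endocytosis, stood at 9.13, 8.93 and 9.23 CPM in controls and at 104, 113 and 138 CPM in lymphomas (3.70 ± 0.14, adjusted p = 3.14e-07). Stra6, the membrane receptor that takes up retinol, rose from 2.68, 1.65 and 1.52 CPM to 237, 181 and 175 CPM (6.66 ± 0.28, adjusted p = 3.14e-07). Nkd1, an inhibitor of Wnt signalling, rose from 2.82 to 3.2 CPM to 609, 480.0 and 616 CPM (7.57 ± 0.41, adjusted p = 1.08e-06). Stra6 and Nkd1 were thus low in each control and well expressed in each lymphoma. Ak5, an adenylate kinase, rose from 0.66 to 0.78 CPM to 162, 157 and 159.9 CPM, and Ryk, a Wnt receptor, from 9.48 to 12.2 CPM to 82.4 to 105 CPM. In the other direction, Rgs14, which quenches G protein signals, fell from 166, 179 and 182 CPM to 29.4, 28.7 and 27.9 CPM (−2.62 ± 0.11, adjusted p = 3.14e-07). Tbc1d10c, an inhibitor of Ras and calcineurin in lymphocytes, fell from 459, 490.0 and 495 CPM to 65.7, 61.4 and 79.1 CPM. Notch1, the receptor that commits progenitors to the T lineage, fell from 317, 305 and 225 CPM to 10.2, 11.1 and 6 CPM (−4.95 ± 0.25, adjusted p = 9.85e-07).

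MYC target genes rose more often than they fell. Of 25 well-known MYC target genes 24 rose (96%) and none fell, against 21.9% and 22.2% of all genes. Their median log2 fold change was 0.94. Npm1, a nucleolar chaperone of ribosome assembly, rose from 302, 278 and 249 CPM to 689, 841 and 919 CPM (1.56 ± 0.17, adjusted p = 4.60e-05). Apex1, a DNA repair endonuclease, rose from 81.6, 80.3 and 68.4 CPM to 177, 183 and 213 CPM (1.31 ± 0.12). Tfrc, the receptor that imports iron, rose from 175, 163 and 143 CPM to 1319.9, 1144 and 2573 CPM (3.39 ± 0.38). The member that did not pass was Phb, a mitochondrial scaffold protein, at 18.3, 18.3 and 19.8 CPM in controls and 27.3, 17.1 and 21 CPM in lymphomas (0.21 ± 0.18, adjusted p = 0.358).

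The E-box stands in the promoters of 8 of the 21 MYC target genes whose promoter was matched, and the stretch around the motif is shown because MYC and MAX bind these letters. Each line gives 30 bases, 5′ to 3′ on the strand of the gene, from RefSeq promoters of the build GRCm38.p6, with the motif CACGTG in capitals. For Apex1, Cdk4 and Ldha 1 copy of several is shown. These genes were chosen for the motif, after their values were seen.
Apex1: gcgctccagaacCACGTGggggcggagccc
Cdk4: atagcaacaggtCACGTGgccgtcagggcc
Ldha: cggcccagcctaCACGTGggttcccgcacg
Hspd1: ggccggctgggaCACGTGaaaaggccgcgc
Nme1: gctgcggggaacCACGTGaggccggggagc
Ran: gctcggccggccCACGTGacccgccgcccc
Eif4a1: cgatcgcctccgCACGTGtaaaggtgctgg
Phb: ttgaggaataggCACGTGcatatattacca
The stretch of Apex1 lies at chr14:50924913-50924942 on the plus strand and that of Nme1 at chr11:93968273-93968302 on the minus strand, with the first base of the motif 24 and 18 bases before the start of the gene. Apex1 holds 3 copies of the motif, 1 of them before the start. Cdk4, the kinase that pairs with D-type cyclins, holds 4 copies of the motif, and Ldha, the enzyme that makes lactate, holds 2. Cdk4 rose from 264 to 298 CPM to 452 to 497 CPM (0.75 ± 0.10) and Ldha from 409 to 453 CPM to 695 to 786 CPM (0.76 ± 0.12). Phb carries the motif as the other 7 do and did not pass the test.

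Over the transcriptome the motif stood more often beside risen genes than beside genes that were not called. It was looked for, as CACGTG, which reads the same on both strands, from 250 bases before to 50 after the start. Of 15185 tested genes outside chromosome 18, 12198 (80.3%) matched a promoter. The motif stood in 9.56% of these, in 12.2% of the risen and in 9.22% of the genes not called. Among all 27025 promoters of the table it stood in 7.24%. For the fallen genes a promoter was found for 79.1%, under the 80% set as a minimum, so no share is given. CAGCTG, an E-box with other inner bases that also reads the same on both strands, stood in 15.5% of the tested and 14.0% of the risen genes. Unlike CACGTG it lacks the pair CG, so it does not account for CG content. The median promoter held 22 CG pairs among risen genes and 19 among genes not called. The part of CG content in the shares was not tested. Within the most abundant of 4 classes of genes 14.2% of the risen and 9.07% of those not called held CACGTG, and in the class below it 11.4% and 12.2% did, so the order was not the same at each level. A match is a description of letters and not of binding.

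Lists of ribosome genes rose more often than they fell, where over all genes 21.9% rose and 22.2% fell. Among factors of the nucleolus that assemble ribosomes, 42 of 58 rose and 2 fell (median 0.96). Rrp15, a ribosomal RNA processing factor, stood at 20.4 to 21.8 CPM in controls and 71 to 88.7 CPM in lymphomas, and Rrp12, which helps export the subunits, at 16.3 to 19.6 and 55.7 to 61.9 CPM. RNA polymerases I and III, which transcribe ribosomal and transfer RNA, had 12 of 15 subunits risen and none fallen. Polr1a, the largest subunit of polymerase I, rose from 39.8 to 42.5 CPM to 156 to 163 CPM (1.95 ± 0.20). Of 81 cytosolic ribosomal proteins 50 rose and 1 fell (median 0.98), and their summed CPM went from 12462 to 13912 in controls to 21372 to 22855 in lymphomas. Rpl23 rose from 108 to 116 CPM to 303 to 337 CPM (1.51 ± 0.11). The exception was Rps4l, an additional copy of a small-subunit protein gene, which fell from 10.7 to 11.8 CPM to 1.08 to 2.47 CPM; genes with near-identical copies are uncertain, since the handling of reads that fit several copies is not given in the sources used here. Of 17 host genes of small nucleolar RNAs, the guides that modify ribosomal RNA, 10 rose and 2 fell (median 1.13); without control 1 or 2 a single member fell. Snhg5 rose from 56.1 to 63.6 CPM to 144 to 169 CPM, and Snhg11 fell from 46.1, 50.9 and 69.7 CPM to 1.34, 0.14 and 1.4 CPM.

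Risen genes also outnumbered fallen ones in lists of translation and folding, where over all genes 21.9% rose and 22.2% fell. Of 54 translation initiation factors 30 rose and 2 fell; Eif2s2, a subunit of the factor that delivers the first transfer RNA, rose from 58 to 58.8 CPM to 133 to 143 CPM. The enzymes that charge transfer RNA were divided by symbol. Of 20 whose symbols lack a final 2, most of them cytosolic, 16 rose and none fell (median 0.66), among them Nars, from 117 to 125 CPM to 252 to 269 CPM. Of the 14 with symbols ending in 2, the usual mark of the mitochondrial enzyme, 3 rose and 4 fell (median −0.07). Those counts are not far from the shares over all genes, 21.9% and 22.2%. The fallen include Vars2, from 94.5 to 118 CPM to 47 to 72.9 CPM, and Cars2, from 39.4 to 42.4 CPM to 20.2 to 23.4 CPM. That split was chosen after the values were seen, and the difference between the sets was not tested. The chaperonin that folds actin and tubulin had 8 of 9 subunits risen; Tcp1 went from 328 to 356 CPM to 826 to 1033 CPM and Cct8 from 306 to 349 CPM to 780.5 to 969 CPM. Of 20 genes of the unfolded protein response 7 rose (35%) and 1 fell (5%). The risen were 4 without any 1 control or without lymphoma 2. Pdia3, a disulfide isomerase, rose from 342 to 384 CPM to 917 to 1094 CPM, and Dnajc3, an inhibitor of the same pathway's kinase, fell from 252 to 291 CPM to 123 to 139 CPM.

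Of 52 nucleoporins and karyopherins, the proteins of the nuclear pore and their carriers, 31 rose (59.6%) and none fell. Over all genes 21.9% rose and 22.2% fell. Xpot, which exports transfer RNA, went from 47.9 to 51.3 CPM to 128 to 168 CPM (1.57 ± 0.15), and Ipo4, an importer of histones and ribosomal proteins, from 33.8 to 34.8 CPM to 83.7 to 132 CPM. The proteasome was divided. Of 43 subunits outside the immune and thymic forms, 25 rose and 2 fell (median 0.44), and of the 6 in those forms or their activator 5 fell and none rose (median −2.05). Psmd14, the deubiquitinase of the lid, rose from 96.9 to 107 CPM to 179 to 202 CPM. Psmb8, a catalytic subunit of the immunoproteasome, fell from 403 to 464 CPM to 88.9 to 138 CPM, and Psmb11, the subunit particular to thymic cortical epithelium, from 172 to 201 CPM to 0.13 to 0.45 CPM. This split was likewise chosen after the values were seen. Over all 49 subunits 25 rose (51%) and 7 fell (14.3%), and the fallen were 4 without control 1 or 2 or without lymphoma 2.

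Of 46 genes of respiratory complex I 11 rose (23.9%) and 9 fell (19.6%), shares near the 21.9% and 22.2% over all genes; the risen were 6 without control 1 or 2 and 7 without lymphoma 3. Ndufaf4, an assembly factor of complex I, rose from 36.1 to 37.2 CPM to 73.6 to 88.8 CPM, and Ndufa11, a membrane subunit, fell from 93.9 to 101 CPM to 49.6 to 60.01 CPM. Of 32 subunits of ATP synthase and cytochrome oxidase 1 rose and 5 fell, and the fallen were 1 without control 3 or lymphoma 1. Of 74 mitochondrial ribosomal proteins 22 rose and 4 fell (median 0.19), and 0 to 1 fell without any 1 control. Of 41 DNA replication proteins 12 rose and 1 fell (median 0.36), and the risen numbered 4 to 19 when single libraries were left out. The difference between these lists and those of cytosolic protein synthesis was not tested.

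Among 258 solute carriers 48 rose (18.6%) and 78 fell (30.2%), against 21.9% and 22.2% of all genes. The risen carriers include importers of amino acids. Slc7a5, which brings in large neutral amino acids, rose from 48.8 to 54.4 CPM to 322, 324 and 209.6 CPM (2.49 ± 0.23), and Slc1a4, which carries alanine, serine and cysteine, from 11.7 to 12.7 CPM to 181, 179 and 84.5 CPM (3.59 ± 0.34). Slc6a19, a neutral amino acid carrier of gut and kidney, stood at 26.9 to 27.4 CPM in controls, and the 3 lymphomas held 1 read of it in all. Slc9a3r1, an adaptor of membrane exchangers, fell from 272 to 332 CPM to 93.7 to 106 CPM. Amino acid carriers therefore lay on both sides.

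Among 24 tumour suppressor genes 7 rose (29.2%) and 5 fell (20.8%), shares not far from the 21.9% and 22.2% over all genes. Cdkn1a, the cyclin-dependent kinase inhibitor p21 that p53 induces, stood at 27.6, 28 and 35.9 CPM in controls and at 466, 176 and 192 CPM in lymphomas (3.19 ± 0.40, adjusted p = 0.000139). Cdkn2a, which encodes a kinase inhibitor and the p53 activator ARF, stood at 2.43, 1.71 and 1.47 CPM and at 7.25, 24 and 53.9 CPM (3.92 ± 0.62, adjusted p = 0.000551). Both were higher in every lymphoma than in any control, with several-fold differences among the tumours for Cdkn2a. Btg1, an antiproliferative gene of resting lymphocytes, fell from 243 to 247 CPM to 76.1, 92.9 and 65 CPM.

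Of 414 zinc finger genes of the Zfp series 96 rose (23.2%) and 48 fell (11.6%), against 21.9% and 22.2% of all genes. Without control 1 the fallen were 29. Zfp532 rose from 4.75 to 6.45 CPM to 229.7, 216 and 492 CPM (5.85 ± 0.42), and Zfp629 fell from 89.7 to 91.8 CPM to 25.8 to 35.7 CPM.

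Of 57 interferon-inducible genes 35 fell (61.4%) and 1 rose (1.75%), against 22.2% and 21.9% of all genes. The other 21 were not called, and the median of the list was −2.10. Its summed CPM went from 2288 to 2445 in controls to 611 to 779 in lymphomas. Gbp8, a guanylate-binding protein, fell from 301, 346 and 335 CPM to 5.66, 10.1 and 8.6 CPM (−5.33 ± 0.36, adjusted p = 3.84e-06). Isg20, an exonuclease against viral RNA, fell from 88.4 to 125 CPM to 1.53 to 3.44 CPM. The riser was Ifi202b, a DNA-binding member of the same response, from 2.38 to 3.87 CPM to 8.27 to 16.1 CPM (adjusted p = 0.0141, and 0.0562 without control 3), and without lymphoma 3 the risen were 3. Of 19 genes of the JAK and STAT pathway 7 fell (36.8%), 1 rose (5.26%) and 11 were not called. Cish, an inhibitor that cytokines induce, fell from 23.3 to 30.9 CPM to 1.15 to 3.87 CPM.

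Of 33 genes of the major histocompatibility complex (H2), which present antigen, 22 fell (66.7%), 2 rose (6.06%) and 9 were not called (median −1.38). Over all genes 22.2% fell and 21.9% rose. The fallen numbered 13 to 14 without any 1 control, and 1 rose without control 1 or 2 or without lymphoma 2 or 3. H2-T22, a nonclassical class I gene, fell from 66.8, 71.8 and 102 CPM to 22, 36.1 and 26.8 CPM, and the class II chain H2-Aa from 679, 689 and 554 CPM to 154, 220.1 and 275 CPM (−1.56 ± 0.43, adjusted p = 0.0133). H2-Q1, a class I gene, rose from 5.23 to 6.71 CPM to 51, 274 and 435 CPM (5.45 ± 0.87, adjusted p = 0.000633). H2-Q2 stood at 35 to 38.8 CPM and at 36.5, 233 and 297 CPM (2.34 ± 0.77, adjusted p = 0.0284, and 0.0658 to 0.0861 without any 1 control or without lymphoma 2 or 3). Both H2-Q genes were lowest in lymphoma 1. Such genes have near-identical copies, so the assignment of reads among them is uncertain. Markers of thymic epithelium, which carries class II, fell in the same libraries. Of other cell types that can carry class II, 4 of 10 dendritic cell and 4 of 11 B cell markers fell and none rose. Of 14 macrophage markers 12 rose. The part of any of these cells in the result was not tested.

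Most keratins fell, as did the epithelial markers. Of 25 keratins 17 fell (68%) and none rose, against 22.2% and 21.9% of all genes. The median was −3.465 when the 9 without reads in the lymphomas are put at their bound. Krt18, a keratin of simple epithelia, fell from 389, 423 and 358 CPM to 2.48, 9.12 and 4.67 CPM, and its partner Krt8 from 153 to 201 CPM to 0.32 to 3.66 CPM.

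Signal regulators were among the fallen genes. Arhgef1, a nucleotide exchange factor of blood cells, fell from 1011, 1074 and 1038 CPM to 257, 255 and 248 CPM (−2.04 ± 0.12, adjusted p = 1.29e-06), and Arhgap4, a GTPase activator, from 399, 402 and 494 CPM to 64.1, 97.4 and 83 CPM. Arhgap29, also a GTPase activator, rose from 8.93 to 11.8 CPM to 121, 189.6 and 184 CPM (4.01 ± 0.21). Of 18 regulators of G protein signalling 10 fell (55.6%) and none rose, against 22.2% and 21.9% of all genes. The fallen were 6 without control 1 or 2 or without lymphoma 2 or 3. Rgs10 fell from 167, 143 and 92.2 CPM to 22.8, 28.2 and 22 CPM.

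Of 52 genes with symbols of potassium channels 18 fell (34.6%) and 9 rose (17.3%), against 22.2% and 21.9% of all genes. The risen include Kcnq1ot1, a noncoding RNA that shares the symbol pattern and is not a channel. Kcnh2, a channel of cardiac repolarisation, fell from 76.9 to 81.2 CPM to 0.22 to 0.57 CPM. Kcnn2, a calcium-gated channel, rose from 0.055 to 0.15 CPM in controls to 33.7, 69.8 and 31.6 CPM in lymphomas. Its relative Kcnn3 stood at 6.3, 6.67 and 5.89 CPM in controls and at 0, 0 and 0 CPM in lymphomas. The calcium-gated channels Kcnn2 and Kcnn3 thus stood on opposite sides.

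Of 55 interleukins and their receptors 25 fell (45.5%) and 9 rose (16.4%), against 22.2% and 21.9% of all genes. Il16, a chemoattractant made by lymphocytes, fell from 421 to 432 CPM to 79, 59.5 and 49.3 CPM (−2.77 ± 0.32). Il9r, the receptor of interleukin 9, rose from 4.2 to 7.48 CPM to 137, 50.6 and 121 CPM (4.03 ± 0.38), and Il12rb2, a chain of the interleukin 12 receptor, from 9.04 to 10.2 CPM to 69.8, 158 and 152 CPM (3.72 ± 0.46).

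Of 18 genes of the circadian clock 7 fell (38.9%) and 3 rose (16.7%), against 22.2% and 21.9% of all genes. Dbp, an output factor of the clock, fell from 36.6 to 43.5 CPM to 12.6, 15.4 and 8.67 CPM (−1.70 ± 0.23, adjusted p = 0.000228). Its antagonist Nfil3 rose from 5.99 to 8.27 CPM to 35.4, 39.2 and 15.5 CPM (2.10 ± 0.45), and Bhlhe40, a repressor of the clock, from 12.7 to 16.2 CPM to 46.5, 30.5 and 65.9 CPM (1.68 ± 0.27). The hour of collection is not given in the labels.

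**Figure D3:**
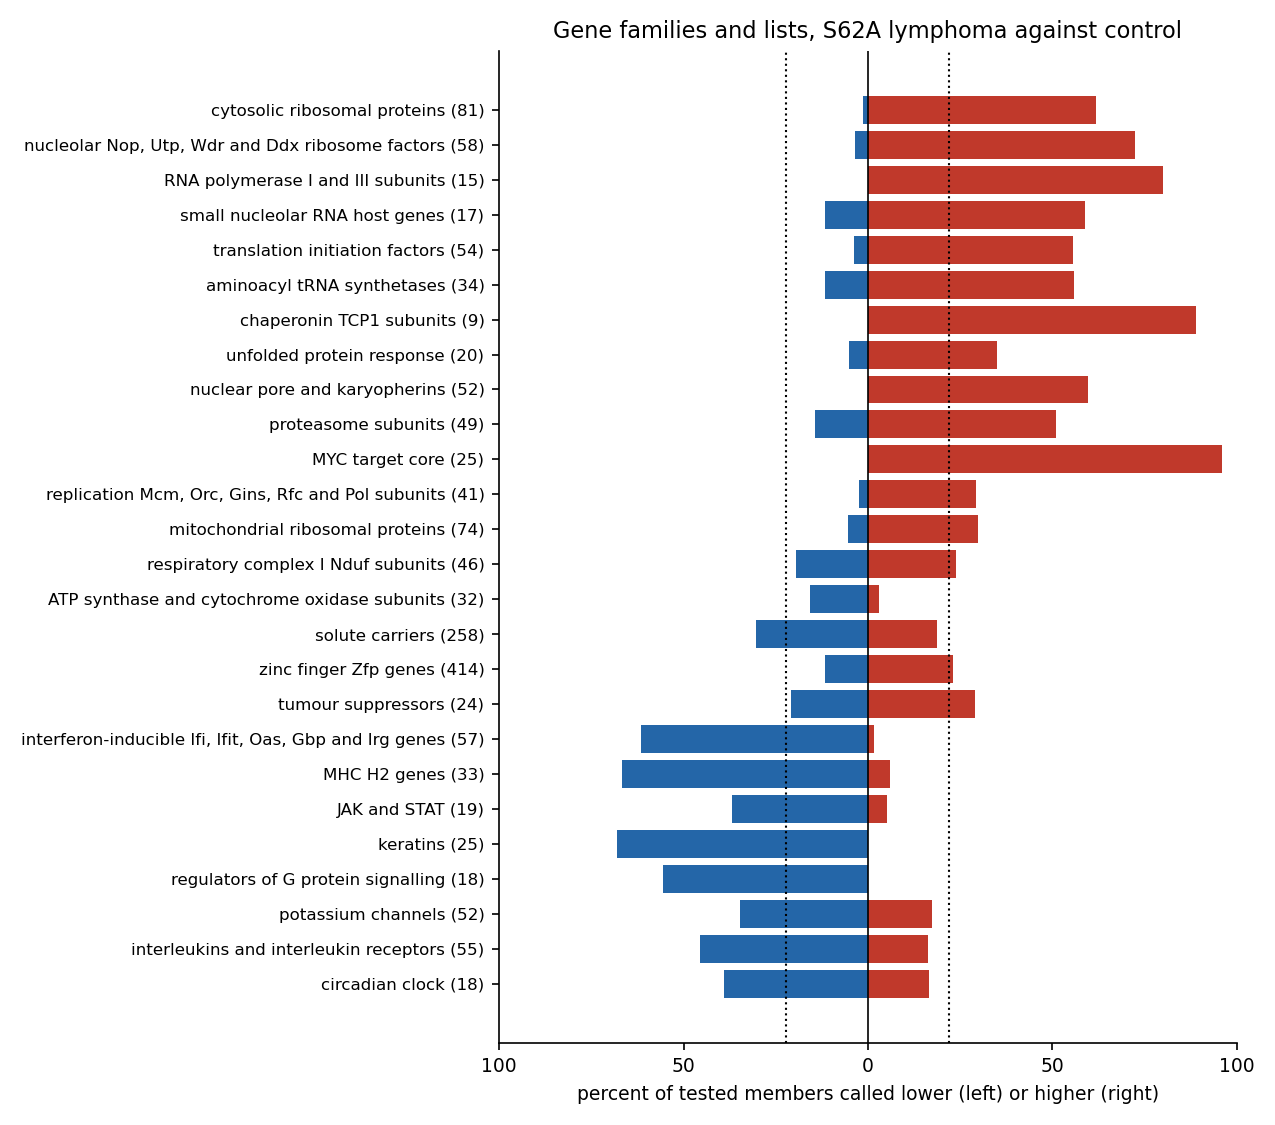
Percent of tested members called lower (blue, to the left) and higher (red, to the right) in S62A lymphoma for 26 gene families and lists, with the number of tested members in brackets; dotted lines mark the percentages over all genes, 22.2% lower and 21.9% higher. Lists of protein synthesis extend to the right and those of interferon, antigen presentation and keratins to the left.

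Some genes were read in only 1 of the states. No read was found in any lymphoma for 155 genes with a mean of at least 1 CPM in controls, and the reverse held for 4 genes (7 to 9 without a single control). Lymphoma libraries were shallower, with 14172274 to 16258508 reads against 17339406 to 22437969 in controls. An absence of reads is therefore reached more easily in lymphomas. Of the 155 genes, 124 had at least 1 read in a T58A lymphoma. Their control levels were low, with a median of 1.97 and a highest mean of 12.1 CPM. Fam163b had the highest control level, 13, 12.4 and 10.8 CPM, and its lymphoma level was at least 178-fold lower. Sptssb, a subunit of the enzyme that begins sphingolipid synthesis, was at least 110.0-fold lower, and Dync1i1, a chain of the dynein motor, at least 108-fold. These bounds use a floor of 3 counts over the group and cover counting error only. Of the genes without reads in controls, Sox14, a transcription factor of the nervous system, stood at 167, 5.39 and 0 CPM in the lymphomas, so its call rested on lymphoma 1 (adjusted p = 0.0373, and 0.0817 without it) and was lost without any 1 control.

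Other deep falls left a few reads. Dnajc6, which uncoats clathrin vesicles, stood at 75.5, 77.1 and 78.2 CPM in controls, and the 3 lymphomas held 3 reads of it in all. Snap91, a clathrin adaptor of nerve endings, stood at 38.3, 28 and 27.1 CPM in controls, and the 3 lymphomas held 1 read. Tdrd5, a protein of the germ cell pathway that silences transposons, fell from 147 to 152 CPM to 0.45, 0.22 and 0.067 CPM (−9.21 ± 0.49). Tbata, a regulator of thymic epithelial growth, fell from 488 to 531 CPM to 0.25, 0.50 and 1.93 CPM (−9.15 ± 0.71). Crip3, a LIM domain protein of the thymus, fell from 128 to 149.5 CPM to 0, 0.072 and 0.60 CPM (−9.25 ± 0.66). Every lymphoma had lost nearly all reads of these genes.

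Called genes also stood side by side on the chromosomes. With tested genes taken in order of position, there were 42 runs of 5 or more neighbours that all fell, with 268 genes, and 38 runs that all rose, with 222 genes. With 44.1% of genes called, a share this high yields runs by itself, and no test was made. Neighbouring copies of a gene may also share reads, so the members of a run are not always separate observations. Without each control in turn the runs numbered 22 to 26 downward and 13 to 14 upward.

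The longest fallen run held 15 genes on chromosome 17 from 34259777 to 34597679 (mm9), with a median log2 fold change of −2.34. It is the class II region of the histocompatibility complex and holds chains such as H2-Ab1, the peptide transporter Tap1 and Psmb8. Tap1 fell from 228, 241 and 219 CPM to 50.8, 48.4 and 48.9 CPM, and H2-Ab1 from 719.9, 689.8 and 552 CPM to 115, 169 and 200.4 CPM. A run of 11 genes on chromosome 3 from 90472993 to 93368567 joined S100a8, a gene of granulocytes, to genes of the horny layer of skin such as Rptn. A run of 9 on chromosome 7 from 50945788 to 51484992 consisted of kallikrein proteases and their kin, of which 6 had no reads in the lymphomas. Some of the 6 had identical counts, with 60 reads in controls, so they may stand for the same reads. At the Hoxa cluster on chromosome 6, from 52108523 to 52177369, 9 neighbours fell. Hoxa7, a positional homeobox factor, stood there at 11, 4.19 and 3.46 CPM in controls and at 0, 0.072 and 0.13 CPM in lymphomas. Granulocyte and epithelial markers fell in these libraries too, and their part in the runs was not tested.

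The longest risen run held 13 genes on chromosome 5 from 77342274 to 87174832, with a median of 1.22. It opens with Ppat and Paics, enzymes of purine synthesis that share a promoter region, which rose from 59.1 to 64.1 CPM to 116 to 165 CPM and from 176 to 181 CPM to 290.2 to 339 CPM. It also holds Polr2b, a core subunit of RNA polymerase II (102 to 104 CPM and 180.4 to 236 CPM), and Igfbp7, a secreted protein that binds growth factors (39.8 to 53.6 CPM and 308 to 433 CPM).

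**Figure D4:**
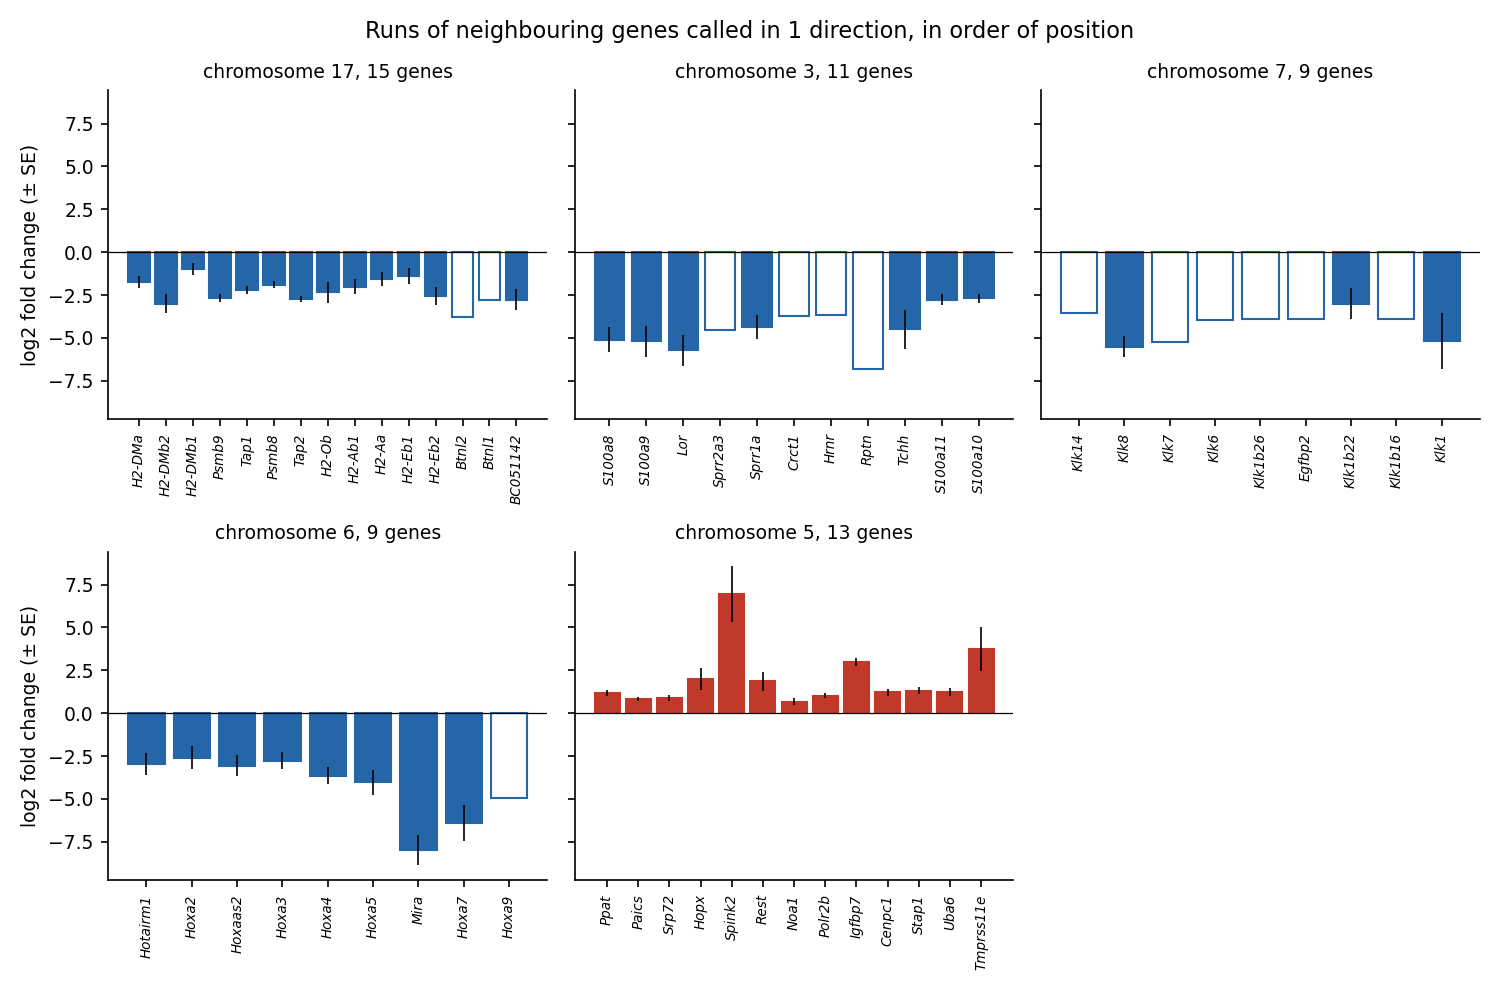
Log2 fold change (filled bars, with SE) of each gene in 4 fallen runs (blue) and 1 risen run (red), in order of position on the chromosome; open bars are genes without reads in a group, drawn at their bound. The kallikrein run on chromosome 7 holds 6 open bars, some of them of genes with identical counts.

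Chromosomes as a whole differed between libraries. For genes with a mean of at least 10 CPM, the median difference from control was taken per chromosome, on a log2 scale and relative to that of all genes of the library. Controls stayed between −0.01 and 0.02 on every chromosome. On chromosome 6 the lymphomas stood at 0.06, 0.39 and 0.37, and 42.1% of its 499 genes rose, against 28.2% over the 10095 genes of all chromosomes. The lower value of lymphoma 1 came from part of the chromosome. In 4 stretches with near-equal numbers of genes it stood at −0.24, 0.071, 0.35 and 0.13, where lymphoma 2 stood at 0.29, 0.52, 0.46 and 0.20 and lymphoma 3 at 0.24, 0.69, 0.41 and 0.14. Lymphoma 1 was thus apart from the others in the first and second stretches and nearer to them in the others. The stretches were cut after the chromosome medians were seen. Stretches of other chromosomes were shifted too. The second of chromosome 5 stood at 0.36, 0.32 and 0.27 in the S62A lymphomas, and the fourth of chromosome 13 at 0.39, 0.39 and 0.31. The first of chromosome 7 was low, at −0.25, −0.24 and −0.33. The T58A lymphomas stood at 0.38, 0.22 and 0.39 on chromosome 6. On chromosome 17 the S62A lymphomas stood at −0.23, −0.22 and 0.16, and the third was the highest in each of 4 stretches of the chromosome. On chromosome 18 they stood at 0.25, 0.12 and 0.32, and on chromosome 7 at −0.13, −0.14 and −0.21. Over the group the median was 0.29 on chromosome 6 and −0.10 on chromosome 17, and without lymphoma 3 it was 0.24 and −0.20. On chromosome 17 it was −0.0078 without lymphoma 1 and −0.044 without lymphoma 2, so each lymphoma moved it. Before centring, the lymphomas did not overlap the controls on 14 of 20 chromosomes, among them 6, 7 and 18 but not 17. The median of all 10095 genes did not overlap either, at 0.083, 0.076 and 0.098 in lymphomas and −0.032 to 0.02 in controls. Part of that count therefore repeats a shift of all genes. The exact two-sided permutation test was run on the uncentred medians, where 3 against 3 cannot go below p = 0.1 (adjusted over chromosomes p = 0.143). The number of DNA copies was not measured here.

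**Figure D5:**
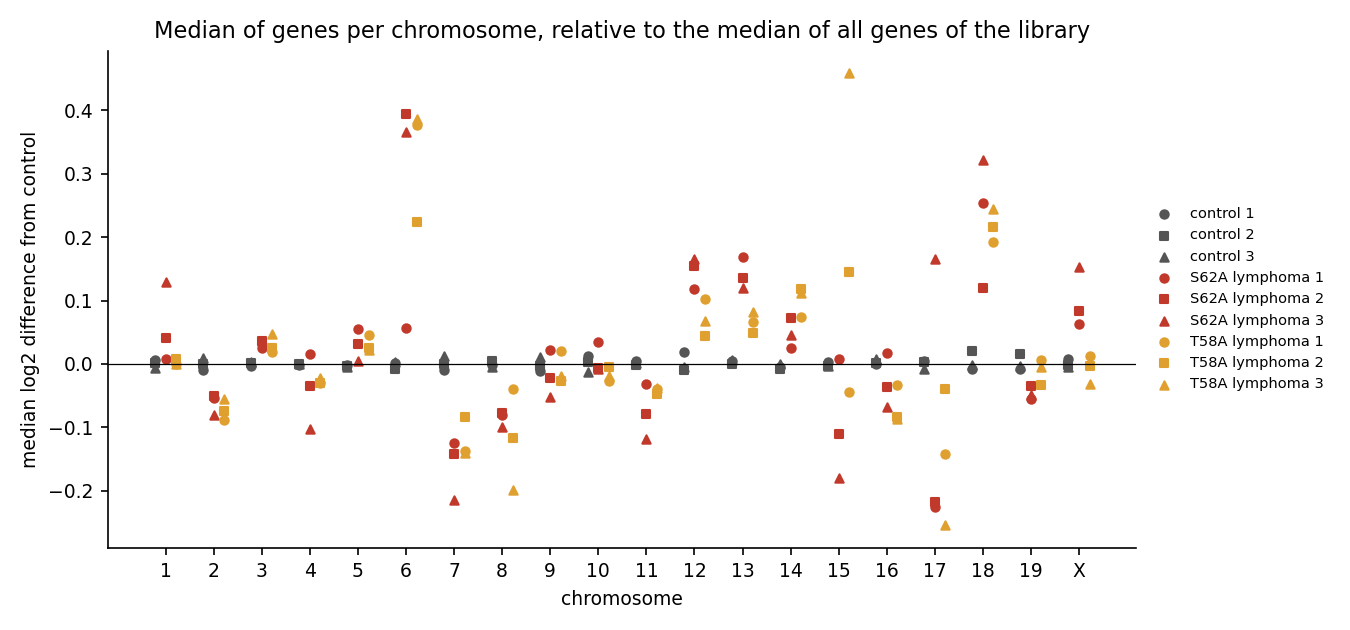
Median log2 difference from control of the genes on each chromosome, relative to the median of all genes of the same library, for controls (grey), S62A lymphomas (red) and T58A lymphomas (yellow), with 1 symbol per library. Controls stay near 0; chromosome 6 is raised in S62A lymphomas 2 and 3, at 0.39 and 0.37, and chromosome 17 stands at 0.16 in S62A lymphoma 3 and below 0 in the other lymphomas.

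Some genes were high in a single S62A lymphoma among the 6 libraries. With at least 20 CPM and at least 10 times the highest of the other 5 libraries as the measure, 8 genes marked lymphoma 1, 2 marked lymphoma 2 and 8 marked lymphoma 3. Lymphoma 1 held Sox11, a factor of embryonic neurons, at 26.3 CPM against at most 0.86 CPM in the other 5. Lymphoma 2 held Ncam1, the neural cell adhesion molecule, at 44 CPM against at most 4.35 CPM. Lymphoma 3 held Shh, a secreted morphogen, at 25.6 CPM against at most 1.58 CPM. It also held Xist, the RNA that silences an X chromosome in females, at 2258 CPM against at most 4.9 CPM. The Y-linked gene Ddx3y stood at 1.73 CPM in lymphoma 3 and at 143 to 228 CPM in the other 5 libraries, so the sexes were mixed among the S62A lymphomas. Several of these genes were also read in T58A lymphomas, which stood at 1294, 61.8 and 44.8 CPM for Xist, 2.6, 28.9 and 15.9 CPM for Ncam1, 0.058, 5.11 and 4.95 CPM for Shh and 0.64, 3.09 and 0.17 CPM for Sox11. The calls of Sox11, Shh and Xist were lost without any 1 control and without the lymphoma that held the gene, and Ncam1 was not called (adjusted p = 0.113). Without lymphoma 3 the called genes numbered 6543.

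The S62A lymphomas were also set against the T58A lymphomas directly. Of 15606 genes 492 were called (3.15%), 134 of them higher in S62A lymphomas (0.859%).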

How the data were processed

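RNA of 12 libraries was measured, of which the 3 S62A lymphomas and 3 controls are compared here. The authors deposited 1 table of read counts and 1 of FPKM (reads per length and library) per library, for RefSeq transcripts of the build mm9. The submitters' processing notes name bcl2fastq 2.20.0.422, Bowtie 1.0.0 and DESeq2. How reads were counted, with which strand setting and with what rule for multiply mapped reads, is not given in the sources used here. Starts in the files were assumed to count from 0 and are printed from 1.

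Of 36141 transcripts, the row with most reads over all libraries was kept for each of 24478 symbols. Counts were tested with edgeR 4.0.16 in R 4.3.3: TMM factors, filterByExpr with a minimum count of 10, a quasi-likelihood fit of the 4 groups in all 12 libraries, and Benjamini-Hochberg adjustment with a threshold of 0.05. Every adjusted p named without a tool comes from this test. A standard error is the log2 fold change divided by the square root of F. Alternatives were RLE factors, library size alone, DESeq2 1.42.0, limma 3.58.1 on log2(FPKM + 1) and log2(FPKM + 0.1), other filters, the 6 libraries alone, the transcript row with the fewest reads, and each library left out. The code was tested on simulated data. Libraries held 14172274 to 22437969 reads, so genes near 1 CPM rest on few reads.

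Members, lists and tests were chosen with earlier results of these data known. Genes were named, predicted ones left out, from the largest changes in CPM and in fold, the smallest p-values, genes read in 1 state, up to 3 members per direction of each list, genes high in 1 lymphoma, the longest runs, and marker and sex-linked genes. Phb and the other genes shown with a promoter stretch were named after their values were seen.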

Additional observations from a re-analysis of the deposited data

Results flagged for a closer look

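Of 118 genes of the text or the plots taken for this comparison, 9 (7.63%) also differed between S62A and T58A lymphomas. The difference was tested in the same fit (edgeR's quasi-likelihood test, adjusted over all 15606 genes, of which 3.15% were called). Many of the genes were picked for their values in the S62A lymphomas, which also enter this difference. The 7.63% and the 3.15% are therefore not shares of like sets of genes. Arhgap29, a GTPase activator, was higher in S62A lymphomas, by 1.22 on the log2 scale (121, 189.6 and 184 CPM against 77.6, 72.3 and 61.8 CPM in T58A, adjusted p = 0.0171). Ddx3x, the RNA helicase, was higher by 1.04 (1572, 2131 and 1794 CPM against 925, 778 and 963 CPM, adjusted p = 0.0165). Stra6, the retinol receptor, was higher by 1.09 (237, 181 and 175 CPM against 89.8, 75.2 and 114 CPM, adjusted p = 0.0291), and Tfrc, the iron importer, by 1.65 (1319.9, 1144 and 2573 CPM against 808, 409.8 and 387 CPM, adjusted p = 0.0348). All of these were above control in both mutants.

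Dnajc6, the gene of vesicle uncoating, was lower in S62A than in T58A lymphomas, with a fitted difference of −3.81 that rests on 3 reads in S62A (0, 0.072 and 0.13 CPM against 0.46, 1.54 and 1.09 CPM, adjusted p = 0.0193). Itsn1, the scaffold of endocytosis, was also lower in S62A lymphomas, with a difference of −0.68 (104, 113 and 138 CPM against 182, 196 and 189.6 CPM, adjusted p = 0.0261). Tbc1d10c, the Ras inhibitor, differed by −0.64 (65.7, 61.4 and 79.1 CPM against 105, 122 and 94.5 CPM, adjusted p = 0.0304), and Notch1, the T lineage receptor, by −1.01 (10.2, 11.1 and 6 CPM against 17.7, 20.2 and 17 CPM, adjusted p = 0.0371). S100a8, a gene of granulocytes, differed by −5.23: it stood at 0.64, 0.93 and 2.4 CPM in S62A lymphomas, 62.5, 21.3 and 66.4 CPM in T58A lymphomas and 60.6, 40.4 and 35.4 CPM in controls (adjusted p = 0.0165).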

How the results depend on the processing

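Over the alternatives run, the called genes numbered 5157 (without control 2) to 7546 (DESeq2), each within 1.5 times the main count, and of them 5141 to 6792 were also called in the main analysis. With limma on log2(FPKM + 1) 2604 genes were higher and 4148 lower. The genes past a 2-fold rise ranged from 486 to 756 when single libraries were left out. At a minimum of 5 CPM, 20 genes had no reads in lymphomas and 1 had none in controls; without a single control the latter were 7 to 9 at 1 CPM. Runs of 4 or more neighbours numbered 100 downward and 100 upward, and runs of 5 or more 22 to 26 and 13 to 14 without a single control. At a ratio of 5, 21, 6 and 36 genes marked lymphomas 1, 2 and 3. Some single genes turned direction when 1 library was left out. Over the left-out libraries the log2 fold change of Rn45s ran from −2.64 to 0.091 (without control 3), of Xist from −1.72 (without lymphoma 3) to 8.35, of Ddx3y from −0.56 to 0.52 (without lymphoma 3), and of Ncam1 from −0.41 (without lymphoma 2) to 2.71. The cause of the changes with the setting was not tested. No paired analysis was possible because the labels give no replicate numbers that tie a control to a lymphoma. Genes near 1 CPM rest on few reads, so their absence cannot be told from a low level.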
